A study of Mus musculus with 8 samples.

Results

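The genes described here are 51 transcription factors and close partners that act in blood cell formation, out of 55487 genes in the expression tables of 2 mouse bone marrow populations. They were chosen by name, as factors that bind DNA or partner such factors in haematopoiesis, and a gene's level is the TPM, a share of all transcripts scaled by their length, summed over the gene's transcripts. All 51 were found, and 41 reached 1 TPM in at least 2 of the 8 libraries and were tested.

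Cells were sorted from bone marrow of C57BL/6J mice as Lineage- CD34- ckit- CD200R3+ cells. Those with high staining for MAR1, an antibody to the alpha chain of the high-affinity IgE receptor, are called pre-Baso, and those with intermediate staining are called basophils. Each population came from wild-type littermate controls and from mice in which a floxed Nfil3 gene had been removed, called Nfil3-deficient here. The Cre driver, the age and the sex of the mice are not given in the sources used here. Each of the 4 groups held 2 libraries, described as biological duplicates, so the p-values below rest on the spread within pairs.

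Basophils arise from granulocyte progenitors through a basophil-committed precursor, under the control of factors of the GATA, C/EBP, RUNX and STAT families. SCL/TAL1, LYL1 and the LIM-only proteins form complexes with GATA factors at E-box and GATA motifs. ID proteins bind E proteins and keep them off DNA, and ETS, RUNX and Ikaros proteins set the open chromatin of many blood lineages. Nfil3, also known as E4BP4, is a basic leucine zipper factor with roles in several immune lineages.

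Each library held 271.7 to 398.0 megabases assigned to transcripts, with 18.7% to 22.4% of TPM on protein-coding genes. The tested factors had a median of 7.66 to 14.7 kilobases of assigned bases per library. Nfil3 itself was at 6.61 and 7.65 TPM in control pre-Baso, 0 and 0.624 in deficient pre-Baso, 20.5 and 22.5 in control basophils and 0.853 and 1.32 in deficient basophils. Its log2 difference between genotypes was -2.67 ± 0.25 (SE; limma adjusted p = 0.00896) in pre-Baso, -3.44 ± 0.25 (adjusted p = 0.00151) in basophils and -3.05 ± 0.18 (adjusted p = 0.000237) over both, with adjusted p = 0.901 for the difference between populations. It rose by 1.47 ± 0.25 from pre-Baso to basophils in controls (adjusted p = 0.00506), and the value in deficient mice was 0.70 ± 0.25 (adjusted p = 0.109). All 10 basophil markers checked reached 1 TPM in at least 2 libraries, among them Gata2, Cd200r3 and Fcer1a, while Mcpt8 was at 1.98 to 6.04 TPM in the deficient libraries against 969.0 to 7888 in controls.

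Markers of other blood cells were not even across libraries. Summed over each marker list, both basophil libraries numbered 1 held more transcripts of macrophages, neutrophils, eosinophils and B cells than those numbered 2. The 7 eosinophil markers summed to 2660 TPM in control basophil library 1 and 190.8 in deficient basophil library 1, against 14.8 to 100.1 in the other 6. The 6 monocyte and macrophage markers summed to 113 and 94.5 TPM there, 58.2 and 55.6 in the other 2 basophil libraries and 19.4 to 32.0 in pre-Baso. The 6 neutrophil markers summed to 2274 and 2009 TPM, 1271 and 1205, and 689 to 1122 in the same order. The 7 B cell markers summed to 126 and 40.3 TPM, 16.9 and 17.3, and 11.9 to 24.8 in that order. Igkc alone was at 115 TPM in control basophil library 1. Of the 9 erythroid markers 5 were tested, and their list summed to 28.1 to 40.4 TPM in 3 pre-Baso libraries, 113 in deficient pre-Baso library 2 and 128 to 166 in basophils. Mcpt4, a mast cell protease, and the natural killer cell genes Ncr1 and Klrb1c were at 0 in all 8 libraries. Other mast cell markers were detected, with Kit at 0.0335 to 0.641 TPM. Cma1, the only tested mast cell marker, was at 0 and 0.715 TPM in control pre-Baso and 2.41 and 2.0 in deficient pre-Baso. In basophils it was at 0 in both control libraries and at 1.17 and 0.646 TPM in the deficient ones. In sorted bulk samples, fewer cells of a type and less RNA per cell cannot be told apart.

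The 51 factors spanned a wide range of levels. Lmo4, a LIM-domain adaptor, was the most abundant at a mean of 173 TPM over the 8 libraries, and its lowest library, at 134.7 TPM, lay above the highest library of every other factor listed. It was followed by Ets1, the founding ETS factor, at 66.3 TPM (52.9 to 89.3), Nfe2, the leucine zipper factor of megakaryocytes and erythroid cells, at 53.9 TPM (45.5 to 61.4), and Cebpb at 41.8 TPM (25.0 to 61.6). In every library 33 of the 51 reached 1 TPM, 21 reached 5 TPM and 11 reached 10 TPM. The median of mean TPM was 6.85 over the 41 tested factors and 4.28 over 9017 tested protein-coding genes.

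**Figure D1:**
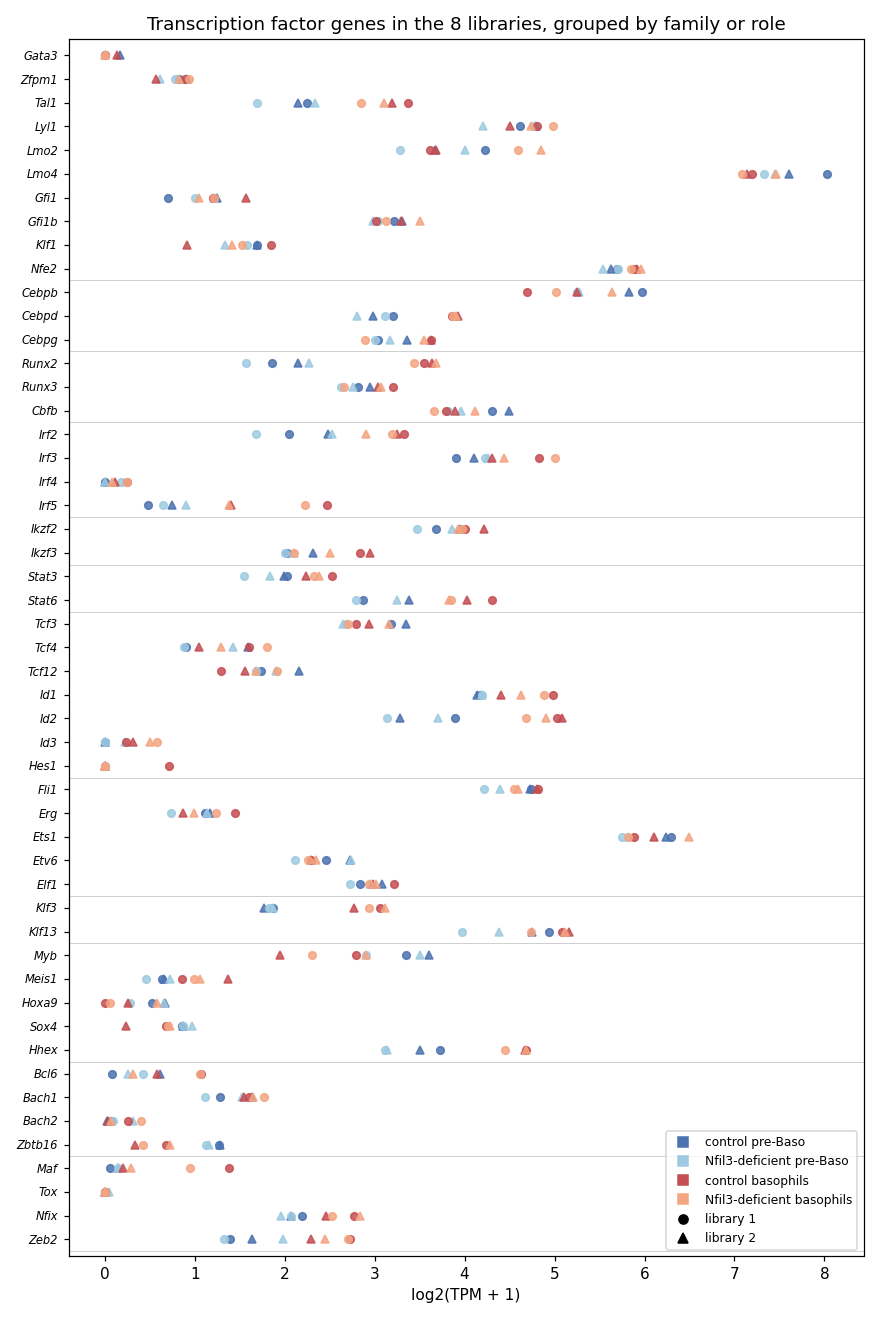
Level of each of the 51 factors in each library, as log2(TPM + 1), grouped by family or role. Colours mark the 4 groups, circles library 1 and triangles library 2. Lmo4 lies to the right of all others, and Gata3, Hes1 and Tox lie at or near 0.

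The 10 factors not tested were Gata3, Zfpm1, Irf4, Id3, Hes1, Hoxa9, Sox4, Bach2, Maf and Tox, and 9 of these were under 1 TPM in every library. Gata3, the GATA factor of T cells and innate lymphoid cells, was at 0 in 6 libraries and at 0.124 and 0.0971 TPM in control pre-Baso library 2 and control basophil library 2. Tox, a factor of lymphocyte development, was at 0.0345 TPM in deficient pre-Baso library 2 and at 0 elsewhere. Hes1, a target of Notch signalling, was at 0.636 TPM in control basophil library 1 alone. Zfpm1, the FOG1 cofactor of GATA1, was measured in all libraries at 0.485 to 0.916 TPM. Hoxa9, a homeobox factor of stem and progenitor cells, ranged from 0 to 0.591 TPM, and Sox4, a factor of early progenitors, from 0.174 to 0.960 TPM. Irf4 reached at most 0.189 TPM, Bach2 0.325 TPM and Id3 0.498 TPM. The exception was Maf, a leucine zipper factor of macrophages and T cells, described with Irf5 below.

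The comparison of basophils with pre-Baso in control mice asks which factors differ between the precursor and the mature cell. Higher in basophils were 11 of the 41 tested factors: Runx2, Id2, Irf5, Klf3, Tal1, Hhex, Stat6, Irf2, Zeb2, Cebpd and Ikzf3. Lower were 4: Myb, Cebpb, Zbtb16 and Lmo4. The 15 called make 36.6% of the tested factors, where 22.6% of all 12511 tested genes were called, 12.6% higher and 10% lower. The median log2 difference was 0.28 over the factors and 0.08 over all tested genes. In Nfil3-deficient mice 8 of 41 factors were called, 19.5% against 10.9% of all tested genes (6.79% higher and 4.11% lower), and all 8 were higher in basophils: Runx2, Hhex, Id2, Klf3, Lmo2, Tal1, Cebpd and Klf13. There the median was 0.37 over the factors and 0.10 over all genes. Differences between the populations also varied with transcript length over all protein-coding genes, as given below. Irf5, Meis1, Bcl6 and Zbtb16 reached 1 TPM in 1 population only and so passed the filter through the population in which they are high. Of the other 37 factors, 13 were called in controls and 8 in deficient mice, 35.1% and 21.6%, against 22.2% and 10.9% of the 11625 genes that reached 1 TPM in both populations. Without regard to a test, 22 factors in controls and 24 in deficient mice were higher in both basophil libraries than in both pre-Baso libraries, and 9 and 2 were lower in both. The shares of all tested genes were 36.4% and 36.6% higher and 26.3% and 21.7% lower.

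**Figure D2:**
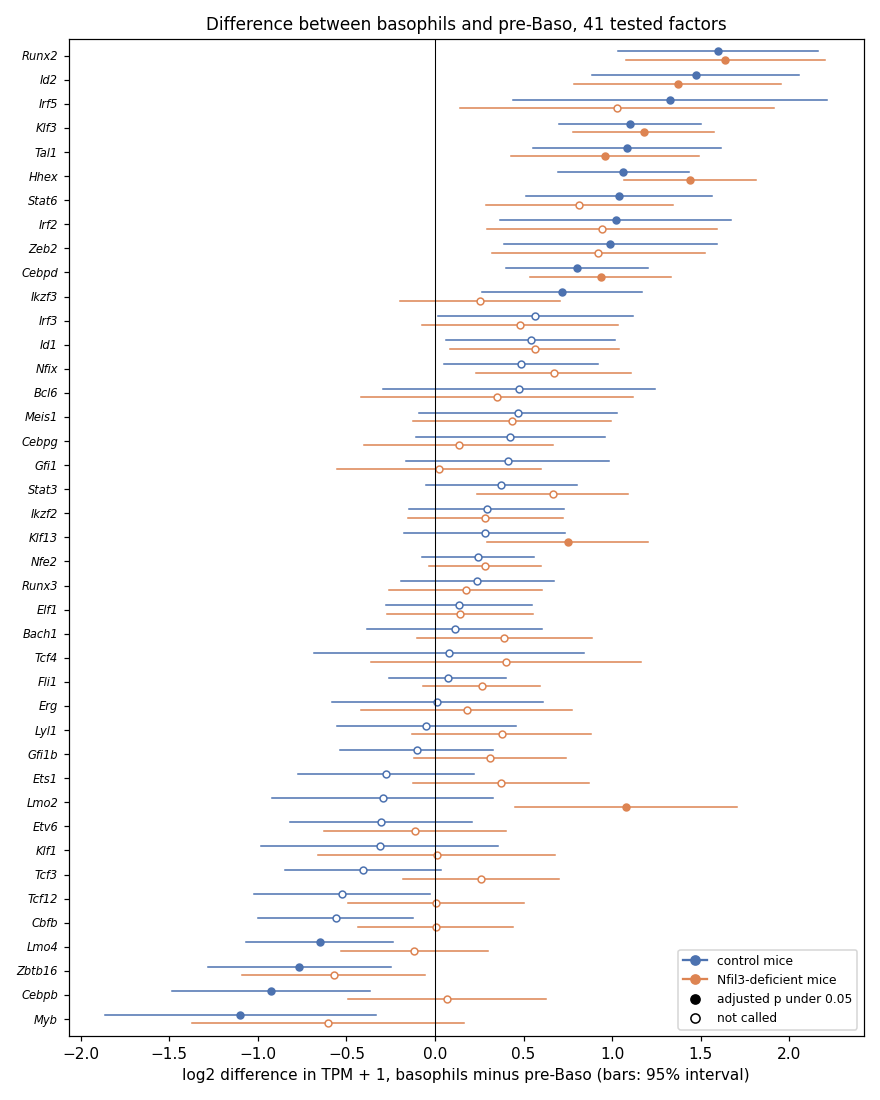
Log2 difference in TPM + 1 between basophils and pre-Baso for the 41 tested factors, in control mice (blue) and Nfil3-deficient mice (orange), with 95% intervals from limma. Filled points have an adjusted p under 0.05. Runx2 stands at the top in both genotypes, at 1.60 and 1.64, and Myb at the bottom, at -1.10 and -0.60.

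Both genotypes shared 6 of these calls, Runx2, Id2, Hhex, Klf3, Tal1 and Cebpd, all higher in basophils. That is 6 of 15 calls in controls and 6 of 8 in deficient mice. Of all tested genes 5.71% (714 genes) were called higher in both. A further 9 were called in controls only and 2 in deficient mice only, but the difference between genotypes was not called for any factor (adjusted p of at least 0.839), so these 11 are not shown to differ between the mice. In all, 17 factors were called in at least 1 genotype and 24 in neither.

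Calls of single factors rested on few libraries. Of the 23 called differences, Runx2, Id2, Klf3 and Hhex in controls stayed called whichever single library was left out, and 0 of the 23 changed sign in any alternative. Without deficient pre-Baso library 1, none of the 8 calls in deficient mice remained. Without both basophil libraries numbered 1, in which markers of other cells were high, 4 factors were called in controls (Runx2, Hhex, Myb and Zbtb16) and 0 in deficient mice, against 1032 and 4 genes in all. Among the called differences only that of Irf5 moved by more than 1.5 times without those 2 libraries.

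RUNX factors bind DNA together with core binding factor beta. Runx2, known from bone and from plasmacytoid dendritic cells, was at 2.61 and 3.41 TPM in control pre-Baso, 1.97 and 3.82 in deficient pre-Baso, 10.7 and 11.5 in control basophils and 9.85 and 11.8 in deficient basophils. Every basophil library lay above every pre-Baso library, and the genotypes overlapped within each population. The log2 difference between populations was 1.60 ± 0.25 (SE; limma adjusted p = 0.00329) in controls and 1.64 ± 0.25 (adjusted p = 0.00813) in deficient mice. Without deficient pre-Baso library 1 the latter was 1.29 (adjusted p = 0.0614). Its genotype differences were -0.08 ± 0.25 in pre-Baso and -0.04 ± 0.25 in basophils.

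Runx3, a factor of cytotoxic T cells and natural killer cells, ranged from 5.18 to 8.20 TPM and was not called (0.24 ± 0.19 in controls, adjusted p = 0.404). Cbfb, the shared partner without a DNA-binding surface of its own, was at 18.8 and 21.5 TPM in control pre-Baso, 13.0 and 14.5 in deficient pre-Baso, 12.8 and 13.8 in control basophils and 11.6 and 16.3 in deficient basophils. Control pre-Baso stood highest, above all 6 other libraries. The difference between populations in controls missed the threshold (-0.56 ± 0.19, adjusted p = 0.0678), as did that between genotypes in pre-Baso (-0.52 ± 0.19, adjusted p = 1).

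RUNX genes have a distal and a proximal promoter, and the deposited transcripts include starts at both. Runx2 lies on the minus strand at chr17:44495987-44814797 of GRCm38, and transcripts that start at its proximal promoter took 86.5% to 97.1% of its TPM in every library. A single proximal transcript, ENSMUST00000113572, made up 80.7% of the gene's TPM over the libraries and went from 1.63 to 3.14 TPM in pre-Baso to 7.06 to 9.79 in basophils. For Runx3 the distal start dominated in 7 libraries, with a proximal share of 0% to 16.7%. In control basophil library 2 all 7.20 TPM were assigned to the proximal start, while the summed level, 7.20 TPM, was within the range of the others. In assigned bases Runx3 held 6.55 kilobases there, against 10.1 to 16.6 in the other 7 libraries. The proximal transcript assigned there has 1855 bases and the leading distal one 3884, so TPM depends on the transcript chosen. Whether the start itself differed in that library was not tested.

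E proteins bind E-box motifs, and ID proteins hold them in inactive dimers. Id2, an antagonist needed for innate lymphoid cells, was at 13.9 and 8.70 TPM in control pre-Baso, 7.78 and 12.1 in deficient pre-Baso, 31.7 and 32.9 in control basophils and 24.7 and 28.9 in deficient basophils. All 4 basophil libraries lay above all 4 pre-Baso libraries. The split of Id2 reads among transcripts varied. The leading transcript, ENSMUST00000020974, was at 0 in control pre-Baso library 2 and deficient pre-Baso library 1. There the longer ENSMUST00000221761 held 7.74 and 6.60 TPM. In assigned bases Id2 held 10.9 and 10.3 kilobases in control pre-Baso and 7.66 and 8.40 in deficient pre-Baso. Id2 rose by 1.47 ± 0.25 (SE; limma adjusted p = 0.00555) in controls and 1.37 ± 0.25 (adjusted p = 0.0162) in deficient mice. Both calls held by assigned bases. The second call ended without deficient pre-Baso library 1 (adjusted p = 0.115) and without deficient basophil library 1 (adjusted p = 0.069) or 2 (adjusted p = 0.072). Id1, its close relative, was at 17.0 and 16.6 TPM in control pre-Baso, 17.3 and 17.2 in deficient pre-Baso, 30.7 and 20.2 in control basophils and 28.4 and 23.8 in deficient basophils, and its differences of 0.54 ± 0.21 (adjusted p = 0.0986) and 0.56 ± 0.21 (adjusted p = 0.121) were not called. Id3 stayed under 0.5 TPM.

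The E proteins themselves were not called in either step. Tcf3, which encodes E2A, was at 8.09 and 9.22 TPM in control pre-Baso, 5.44 and 5.28 in deficient pre-Baso, 5.90 and 6.65 in control basophils and 5.52 and 7.90 in deficient basophils. Control pre-Baso was the highest group, and the basophil groups overlapped. Tcf12, which encodes HEB, was at 2.34 and 3.47, 2.22 and 2.74, 1.45 and 1.95, and 2.78 and 2.22 TPM in the same order of groups. Tcf4, the E protein of plasmacytoid dendritic cells, ranged from 0.838 to 2.49 TPM, with each pair of libraries differing by more than the group means did.

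Hhex, a homeobox factor of early blood and B cell progenitors, was at 12.2 and 10.4 TPM in control pre-Baso, 7.68 and 7.77 in deficient pre-Baso, 24.7 and 24.5 in control basophils and 20.8 and 24.7 in deficient basophils. The populations did not overlap in either genotype. The rise was 1.06 ± 0.16 (SE; limma adjusted p = 0.00317) in controls and 1.44 ± 0.16 (adjusted p = 0.0047) in deficient mice, and without deficient pre-Baso library 1 the second was 1.43 (adjusted p = 0.0553). Both deficient pre-Baso libraries lay below both control ones, a genotype difference of -0.49 ± 0.16 that was not called (adjusted p = 1).

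Of the other tested progenitor-associated factors, Myb lay lower in basophils and Meis1 higher. Myb, a factor that sustains proliferating progenitors, was at 9.15 and 11.1 TPM in control pre-Baso, 6.50 and 10.4 in deficient pre-Baso, 5.95 and 2.86 in control basophils and 3.93 and 6.49 in deficient basophils. It fell by 1.10 ± 0.33 on the log2 scale in controls (limma adjusted p = 0.0474), with -0.60 ± 0.33 (adjusted p = 0.278) in deficient mice. The call in controls ended on leaving out control pre-Baso library 1 (-1.23, adjusted p = 0.128) or 2 (-0.97, adjusted p = 0.192), control basophil library 2 (-0.67, adjusted p = 0.213) or either deficient pre-Baso library (adjusted p = 0.052). Genes of mitosis and S phase fell beside Myb: of 16 listed, 16 were called lower in control basophils and 15 in deficient basophils, where 10% and 4.11% of all tested genes were. Their part in the Myb difference was not tested. Meis1, a partner of HOX factors in stem cells, reached 1 TPM only in basophil libraries, at 0.814 and 1.59 TPM in controls and 0.990 and 1.07 in deficient mice, against 0.369 to 0.653 in pre-Baso, and was not called.

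KLF3 and KLF13 are zinc finger proteins that repress many of their targets. Klf3 was at 2.64 and 2.41 TPM in control pre-Baso, 2.55 and 2.65 in deficient pre-Baso, 7.36 and 5.81 in control basophils and 6.66 and 7.66 in deficient basophils. The pre-Baso libraries lay close together, and every basophil library lay well above them. Klf3 rose by 1.10 ± 0.17 (SE; limma adjusted p = 0.00382) in controls and 1.18 ± 0.17 (adjusted p = 0.00808) in deficient mice, and without deficient pre-Baso library 1 the second was 1.16 (adjusted p = 0.0722). Klf13 was more abundant, at 29.6 and 25.8 TPM in control pre-Baso, 14.7 and 19.8 in deficient pre-Baso, 32.9 and 34.8 in control basophils and 25.6 and 33.6 in deficient basophils. Its rise was called in deficient mice only (0.75 ± 0.20, adjusted p = 0.0478), from the lowest group, and was 0.28 ± 0.20 (adjusted p = 0.350) in controls. The Klf13 call depended on each of the 8 libraries, since leaving out any ended it (adjusted p = 0.0588 to 0.264).

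Tal1, which encodes the helix-loop-helix factor SCL, was at 3.76 and 3.44 TPM in control pre-Baso, 2.24 and 4.06 in deficient pre-Baso, 9.34 and 8.16 in control basophils and 6.19 and 7.61 in deficient basophils. Basophils lay above pre-Baso in all libraries, and controls above deficient mice among basophils. Tal1 rose by 1.08 ± 0.23 (SE; limma adjusted p = 0.0127) in controls and 0.96 ± 0.23 (adjusted p = 0.0358) in deficient mice. Each call was lost without 1 library: in controls without control pre-Baso library 1 (adjusted p = 0.0598) or 2 (adjusted p = 0.0679) or control basophil library 1 (adjusted p = 0.0622). In deficient mice it was lost without deficient pre-Baso library 1 (0.64, adjusted p = 0.195), either deficient basophil library (adjusted p = 0.0993 and 0.144) or either control pre-Baso library (adjusted p = 0.0595 and 0.0593). By assigned bases (coverage times length), the difference in controls was 0.77 (limma adjusted p = 0.0551). Assigned bases can also move with the transcript chosen. Tal1 held 9.93 and 16.4 kilobases in control basophil libraries 1 and 2, with its leading transcript, ENSMUST00000030489, at 0 and 6.19 TPM.

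Among the partners of Tal1, Lmo2, the bridging protein of the SCL complex, was at 17.7 and 11.7 TPM in control pre-Baso, 8.70 and 15.1 in deficient pre-Baso, 11.2 and 11.9 in control basophils and 23.1 and 27.9 in deficient basophils. Deficient basophils were the highest group, above all 6 other libraries. The difference between populations was 1.08 ± 0.27 (SE; limma adjusted p = 0.0408) in deficient mice and -0.30 ± 0.27 (adjusted p = 0.475) in controls, and that between genotypes in basophils was 1.07 ± 0.27 (adjusted p = 0.288). The difference of these differences, 1.38 ± 0.39, had the smallest p of all 41 factors and was not called (adjusted p = 0.839). StringTie split the Lmo2 reads differently from library to library: ENSMUST00000111143 held 0 to 19.0 TPM and ENSMUST00000111140 0 to 11.2 TPM. By assigned bases the rise in deficient mice was 0.69 (adjusted p = 0.306), and the call also ended without deficient pre-Baso library 1 (0.72, adjusted p = 0.233) or deficient basophil library 1 (1.21, adjusted p = 0.115) or 2 (0.95, adjusted p = 0.158).

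Lmo4 was at 261.0 and 194 TPM in control pre-Baso, 160.1 and 174 in deficient pre-Baso, 146 and 140.5 in control basophils and 134.7 and 175 in deficient basophils. It stood highest in control pre-Baso, above all 6 other libraries. Lmo4 fell by 0.65 ± 0.18 on the log2 scale in controls (limma adjusted p = 0.0342), with -0.12 ± 0.18 (adjusted p = 0.717) in deficient mice. Without control pre-Baso library 1 the value in controls was -0.44 (adjusted p = 0.165), and the call also ended without control basophil library 1 (adjusted p = 0.102) or 2 (adjusted p = 0.117) or either deficient pre-Baso library (adjusted p = 0.0533 and 0.0535).

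The remaining erythroid and megakaryocytic factors were not called. Lyl1, the closest relative of Tal1, ranged from 17.4 to 30.6 TPM with differences between populations of -0.05 ± 0.22 and 0.38 ± 0.22 in controls and deficient mice. Nfe2 was higher in all 4 basophil libraries, 56.5 to 61.4 TPM against 45.5 to 51.1 in pre-Baso, but the differences of 0.24 ± 0.14 and 0.28 ± 0.14 missed the threshold. Gfi1b, a repressor needed for erythroid cells and platelets, ranged from 6.89 to 10.4 TPM, Gfi1, its granulocyte relative, from 0.633 to 1.97 TPM, and Klf1, the erythroid globin activator, from 0.877 to 2.60 TPM.

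Of the 3 C/EBP factors, Cebpd rose and Cebpb fell in controls, Cebpd alone was called in deficient mice, and Cebpg was called in neither. Cebpd, an acute-phase factor of granulocytes, was at 8.22 and 6.88 TPM in control pre-Baso, 7.67 and 5.96 in deficient pre-Baso, 13.5 and 14.2 in control basophils and 13.7 and 14.0 in deficient basophils. It rose by 0.80 ± 0.17 (SE; limma adjusted p = 0.0135) and 0.93 ± 0.17 (adjusted p = 0.0163). In controls the call ended without control pre-Baso library 2 (adjusted p = 0.0688) or control basophil library 1 (adjusted p = 0.0538) or 2 (adjusted p = 0.0645), and in deficient mice without any of its own 4 libraries (adjusted p = 0.066 to 0.0834).

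Cebpb, a factor of stress granulopoiesis and macrophages, was at 61.6 and 55.9 TPM in control pre-Baso, 37.0 and 37.5 in deficient pre-Baso, 25.0 and 37.0 in control basophils and 31.4 and 48.8 in deficient basophils. Control pre-Baso stood above all 6 other libraries. Cebpb fell by 0.93 ± 0.24 on the log2 scale in controls (limma adjusted p = 0.0286), while the value in deficient mice was 0.07 ± 0.24 (adjusted p = 0.886), and the difference between the steps, 1.0 ± 0.35, was not called (adjusted p = 0.897). Leaving out control pre-Baso library 1 or 2 (adjusted p = 0.134 and 0.0833) or control basophil library 1 (adjusted p = 0.151) ended the call. Cebpg, a C/EBP protein that dimerizes with its relatives, was at 7.22 and 9.26, 7.0 and 8.04, 11.3 and 11.3, and 6.45 and 10.7 TPM in the order control and deficient pre-Baso, control and deficient basophils, and was not called.

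**Figure D3:**
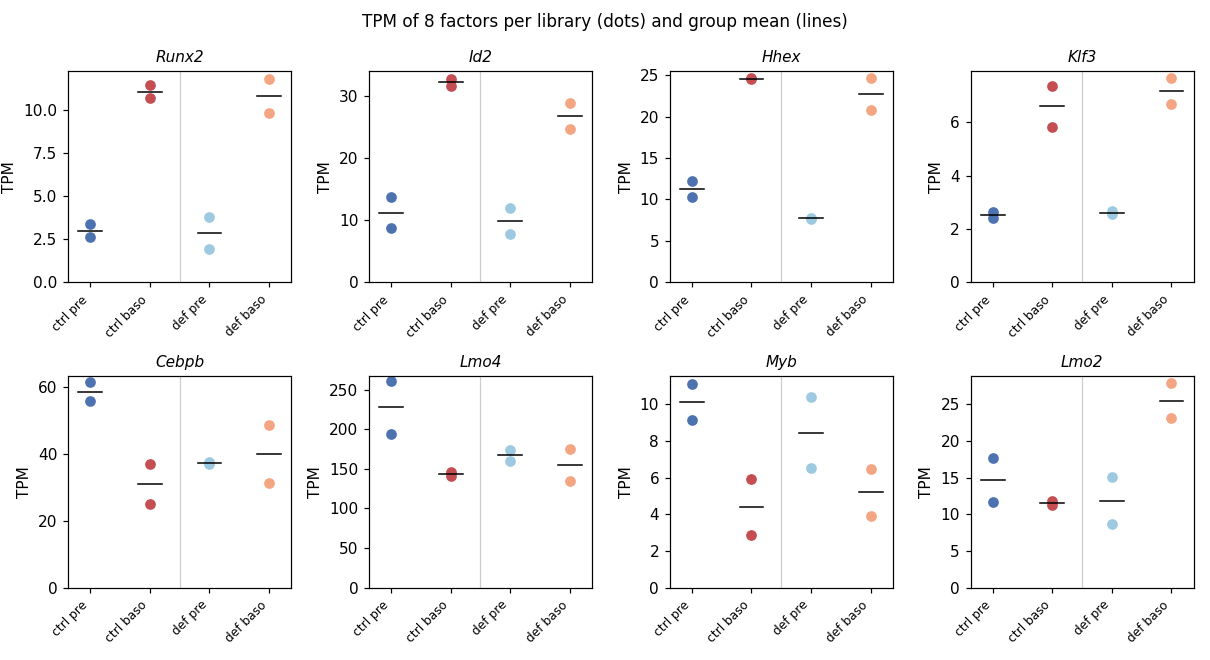
TPM of 8 factors in each library (dots) with the group mean (lines), for control (ctrl) and Nfil3-deficient (def) pre-Baso (pre) and basophils (baso). Runx2, Id2, Hhex and Klf3 are higher in basophils of both genotypes. Cebpb and Lmo4 are highest in control pre-Baso and Lmo2 is highest in deficient basophils.

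STAT6 carries the signal of interleukin-4, and STAT3 that of interleukin-6 and granulocyte colony-stimulating factor. Stat6 was at 6.33 and 9.39 TPM in control pre-Baso, 5.95 and 8.51 in deficient pre-Baso, 18.7 and 15.2 in control basophils and 13.4 and 13.2 in deficient basophils. No basophil library overlapped with pre-Baso, and the control basophils lay above the deficient ones. Stat6 rose by 1.04 ± 0.23 in controls (limma adjusted p = 0.0146), with 0.81 ± 0.23 (adjusted p = 0.058) in deficient mice. The call ended without control pre-Baso library 1 (0.79, adjusted p = 0.0908) or control basophil library 1 (0.90, adjusted p = 0.0776). Stat3 ranged from 1.92 to 3.06 TPM in pre-Baso and 3.70 to 4.78 TPM in basophils and was not called (0.37 ± 0.19, adjusted p = 0.185, and 0.66 ± 0.19, adjusted p = 0.0559).

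Irf2, a repressor at interferon response elements, was at 3.15 and 4.56 TPM in control pre-Baso, 2.21 and 4.76 in deficient pre-Baso, 9.01 and 8.47 in control basophils and 8.12 and 6.48 in deficient basophils. The populations were apart in both genotypes, while the 2 deficient pre-Baso libraries differed more than any other pair. Irf2 rose by 1.02 ± 0.28 (limma adjusted p = 0.0345) in controls, with 0.94 ± 0.28 (adjusted p = 0.0701) in deficient mice, and each of the 4 control libraries ended the call when left out (adjusted p = 0.0634 to 0.190). Irf3, the factor activated by viral nucleic acid sensing, ranged from 13.9 to 18.1 TPM in pre-Baso and 18.8 to 31.2 TPM in basophils without a call (0.57 ± 0.24, limma adjusted p = 0.129, in controls). Its leading transcript, ENSMUST00000208906 of 629 bases, was at 1.42 to 10.2 TPM in pre-Baso and 5.10 to 16.4 TPM in basophils. In assigned bases the populations overlapped, at 9.2 to 15.8 kilobases in pre-Baso and 11.4 to 14.7 in basophils.

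Irf5, an inflammatory factor of macrophages, was at 0.393 and 0.678 TPM in control pre-Baso, 0.566 and 0.869 in deficient pre-Baso, 4.55 and 1.65 in control basophils and 3.68 and 1.59 in deficient basophils. All basophil libraries lay above pre-Baso, and those numbered 1 lay above those numbered 2. It rose by 1.33 ± 0.39 in controls (limma adjusted p = 0.0411), with 1.03 ± 0.39 (adjusted p = 0.128) in deficient mice. It reached 1 TPM only in basophils, so it entered the test through the population in which it is high, and with no filter the value in controls was 1.33 with adjusted p = 0.174. Without control basophil library 1 the value was 0.79 (adjusted p = 0.202), without control pre-Baso library 1 or 2 it was 1.19 (adjusted p = 0.187) and 1.46 (adjusted p = 0.109), and without either deficient pre-Baso library adjusted p was 0.0606 and 0.0609.

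Maf moved across libraries in the same way as Irf5, at 1.60 and 0.148 TPM in control basophils, 0.922 and 0.225 in deficient basophils and 0.0389 to 0.109 in pre-Baso. C1qa, a complement gene of macrophages, was at 27.8 and 2.08 TPM in control basophils and 14.9 and 2.88 in deficient basophils, against 1.10 to 1.80 in pre-Baso. Csf1r, the receptor of macrophage colony-stimulating factor, was at 7.08 and 1.36 TPM and 7.72 and 2.06 TPM, against 0.603 to 0.851 in pre-Baso. Of the other monocyte and macrophage markers, Ly6c2, Adgre1 and Fcgr1 were also higher in the basophil libraries numbered 1. Ly6c2 was at 44.5 and 22.8 TPM in control and 45.2 and 27.2 in deficient basophils, against 7.69 to 20.9 in pre-Baso. Ccr2 did not follow the library numbers, at 29.8 and 30.3 TPM in control and 23.3 and 21.9 in deficient basophils, against 7.77 to 9.18 in pre-Baso. Runx2 was at similar levels in both basophil libraries of each genotype. Bcl6, a repressor of lymphocytes and macrophages, was at 1.10 and 0.493 TPM in control basophils and 1.09 and 0.247 in deficient basophils, and 0.0584 to 0.535 in pre-Baso. The part of cells bearing macrophage or B cell markers in the levels of Irf5, Maf and Bcl6 was not tested.

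**Figure D4:**
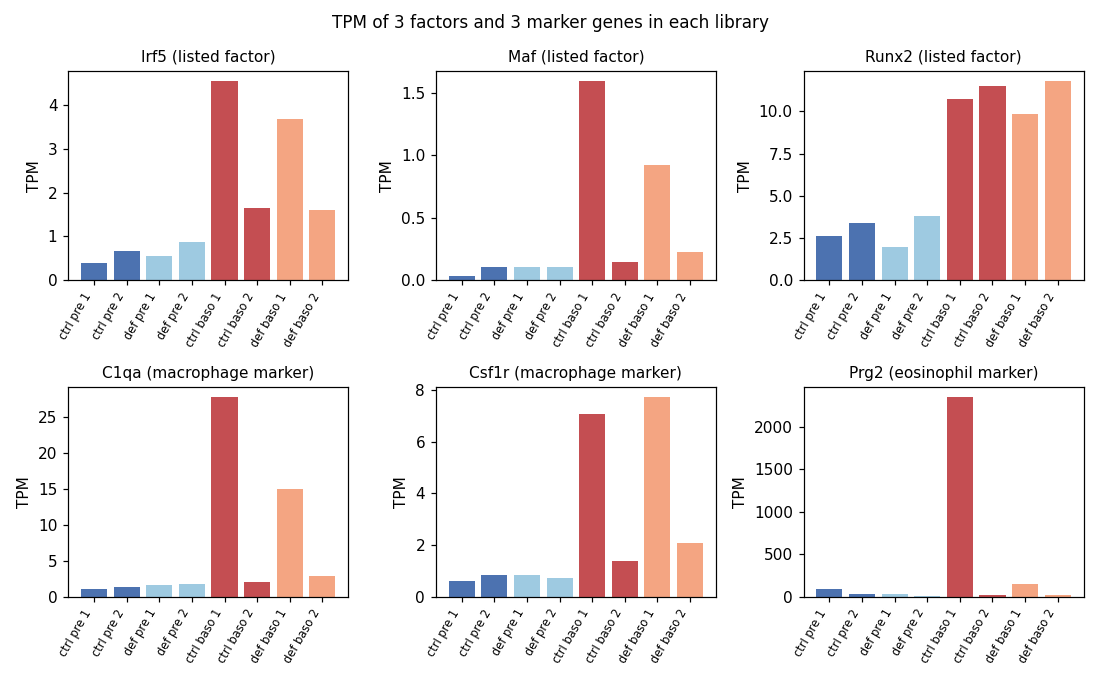
TPM per library (bars) of Irf5, Maf and Runx2, of the macrophage markers C1qa and Csf1r and of the eosinophil marker Prg2, for control (ctrl) and Nfil3-deficient (def) pre-Baso (pre) and basophils (baso). Irf5, Maf, C1qa and Csf1r are higher in the basophil libraries numbered 1 than in those numbered 2, Prg2 reaches 2354 TPM in control basophil library 1, and Runx2 differs little within each pair of basophil libraries.

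Ikaros family proteins are zinc finger regulators of lymphocyte chromatin. Ikzf3, which encodes Aiolos, was at 3.07 and 3.99 TPM in control pre-Baso, 3.0 and 3.29 in deficient pre-Baso, 6.13 and 6.69 in control basophils and 3.31 and 4.67 in deficient basophils. Control basophils stood above all 6 other libraries. Ikzf3 rose by 0.72 ± 0.20 in controls (limma adjusted p = 0.0329), with 0.26 ± 0.20 (adjusted p = 0.436) in deficient mice, and lay lower in deficient than in control basophils by a difference that was not called (-0.58 ± 0.20, adjusted p = 0.431). The rise lost its call when any control or deficient pre-Baso library or control basophil library was left out (adjusted p = 0.0502 to 0.170). Ikzf2, which encodes Helios, was more abundant, at 10.1 to 14.4 TPM in pre-Baso and 14.2 to 17.6 TPM in basophils, without a call.

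Zeb2, a zinc finger and homeobox repressor of mature myeloid and natural killer cells, was at 1.63 and 2.12 TPM in control pre-Baso, 1.5 and 2.96 in deficient pre-Baso, 5.62 and 3.89 in control basophils and 5.51 and 4.46 in deficient basophils. Basophils were above pre-Baso in all libraries. Zeb2 rose by 0.99 ± 0.26 in controls (limma adjusted p = 0.0293), with 0.92 ± 0.26 (adjusted p = 0.0591) in deficient mice. In controls the call ended without control pre-Baso library 1 (adjusted p = 0.153) or 2 (adjusted p = 0.0752) or control basophil library 1 (0.77, adjusted p = 0.143). Nfix, a nuclear factor I protein of stem cells and myeloid cells, was at 2.89 to 3.56 TPM in pre-Baso and 4.51 to 6.16 TPM in basophils, with differences of 0.49 ± 0.19 (adjusted p = 0.103) and 0.67 ± 0.19 (adjusted p = 0.0587).

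Zbtb16, which encodes the BTB repressor PLZF of innate-like lymphocytes, reached 1 TPM only in pre-Baso. It was at 1.41 and 1.42 TPM in control pre-Baso, 1.19 and 1.24 in deficient pre-Baso, 0.600 and 0.262 in control basophils and 0.340 and 0.655 in deficient basophils. The fall of 0.77 ± 0.23 on the log2 scale was called in controls (limma adjusted p = 0.0418), with -0.57 ± 0.23 (adjusted p = 0.142) in deficient mice. Zbtb16 entered the test only through the population in which it is high, and with no filter the adjusted p in controls was 0.107. With a pseudocount of 0.1 the same difference was -1.59 (adjusted p = 0.0567), and every control or deficient pre-Baso library or control basophil library ended the call when left out (adjusted p = 0.0628 to 0.182). Nkg7 and Thy1, the 2 most abundant markers of T cells and innate lymphocytes in the list, were also higher in pre-Baso, at 129 to 186 and 13.0 to 18.6 TPM against 53.5 to 76.0 and 2.03 to 6.43 TPM in basophils. Rora, the third tested marker of that list, lay the other way, at 0.565 to 0.775 TPM in pre-Baso and 1.29 to 2.21 TPM in basophils. Cd3d, Cd3e and Cd3g of that list were not tested and reached at most 0.773, 0.121 and 0.488 TPM, each in a basophil library. Of these only Cd3d was detected in pre-Baso, at 0.153 TPM in control pre-Baso library 1. Bach1, a repressor regulated by haem, ranged from 1.16 to 2.41 TPM without a call.

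Of the 5 ETS factors 0 were called between populations in either genotype, and with 22.6% and 10.9% of all genes called this count is near the background. Their log2 differences in controls ran from -0.30 ± 0.22 for Etv6, a repressor needed for platelets, to 0.14 ± 0.18 for Elf1. Ets1 was at 77.4 and 74.7 TPM in control pre-Baso, 52.9 and 55.4 in deficient pre-Baso, 57.8 and 67.9 in control basophils and 55.3 and 89.3 in deficient basophils. The 2 deficient basophil libraries spanned nearly the whole range. Erg, a factor of stem cells and endothelium, was near the limit of the filter, at 0.661 to 1.72 TPM.

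Levels in the genotypes were compared within each population and over both, and 0 of 41 factors were called in any of these contrasts or for the change of the genotype difference from pre-Baso to basophils. Over all genes, 0.0639% were called in pre-Baso, 0.056% in basophils, 0.0879% over both and 0% for the difference. Unadjusted p under 0.05 was reached by 7 factors in pre-Baso, 2 in basophils, 4 over both and 3 for the difference, against 4.38%, 8.51%, 7.44% and 5.51% of all tested genes. The 95% interval had a median half-width of 0.505 on the log2 scale for a genotype difference in 1 population and 0.357 over both, and differences wider than these also went uncalled after adjustment. In each alternative run the count in these 4 contrasts was also 0.

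**Figure D5:**
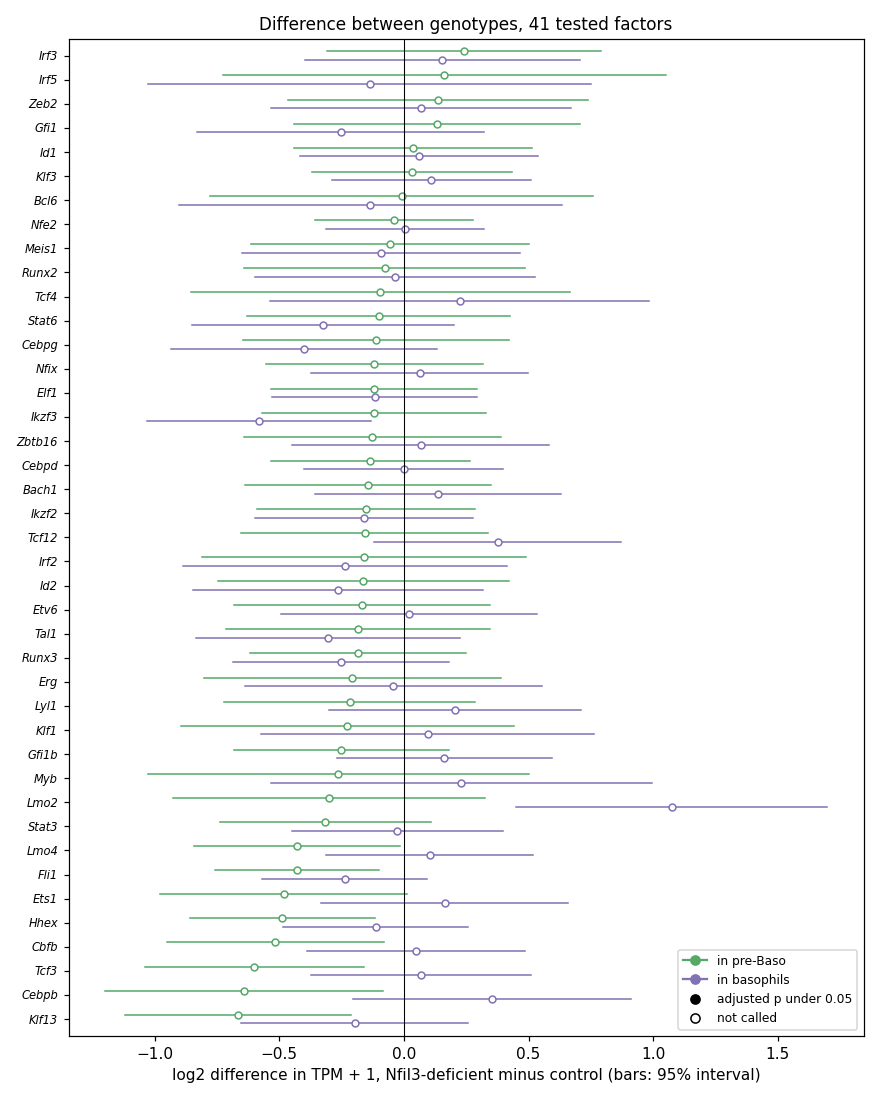
Log2 difference in TPM + 1 between Nfil3-deficient and control mice for the 41 tested factors, in pre-Baso (green) and in basophils (purple), with 95% intervals from limma. All points are open, since 0 factors were called. In pre-Baso 35 of 41 points lie below 0, from -0.67 to 0.24, and in basophils 20 of 41 do.

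In pre-Baso the smallest p-values belonged to Klf13 (-0.67 ± 0.20, limma adjusted p = 0.991), Tcf3 (-0.60 ± 0.19), Hhex (-0.49 ± 0.16), Fli1 (-0.43 ± 0.14) and Cbfb (-0.52 ± 0.19), the last 4 with adjusted p = 1. All 5 lay lower in both deficient libraries than in both control libraries. Counted over the list, 14 of 41 factors lay lower without overlap and 2 higher, where 19.3% and 11.2% of all tested genes did. The list's median was -0.16, with 6 of 41 above 0, and the median of all genes was -0.04. Without deficient pre-Baso library 1 the list's median was -0.02, with 18 of 41 above 0, and without deficient pre-Baso library 2 it was -0.33. Deficient pre-Baso library 1 had the lowest sum of the 51 factors, 527 TPM against 574 to 764 in the other 7.

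Transcript length moved with this pattern. Of the 41 tested factors, 20 fell in the longest of 3 equal classes of tested protein-coding genes, those of at least 3378 bases. The median genotype difference in pre-Baso was -0.004 in the shortest class, -0.089 in the middle and -0.10 in the longest. Deficient pre-Baso library 1 minus library 2 had medians of 0.097, -0.04 and -0.153 in these classes and -0.175 over the factors. For basophils minus pre-Baso the medians from the shortest to the longest class were -0.028, 0.075 and 0.179 in controls. In deficient mice they were -0.0, 0.138 and 0.235. The part of length in the factors' differences, between genotypes or between populations, was not tested.

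In basophils the smallest p-values belonged to Lmo2 and Ikzf3, given above, and to Tcf12 (0.38 ± 0.22, limma adjusted p = 0.693), Cebpg (-0.40 ± 0.23, adjusted p = 0.694) and Fli1 (-0.24 ± 0.14, adjusted p = 0.704). The median over the factors was 0.004 and that of all genes -0.01. Lower without overlap were 8 of 41 and higher 3, against 21.4% and 17.2% of all genes.

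Fli1, an ETS factor of megakaryocytes and stem cells, was the only member of the list whose 4 deficient libraries all lay below its 4 control libraries. It was at 25.6 and 25.6 TPM in control pre-Baso, 17.6 and 19.9 in deficient pre-Baso, 27.1 and 26.8 in control basophils and 22.3 and 23.1 in deficient basophils. The mean difference over both populations was -0.33 ± 0.10 (limma adjusted p = 0.51). Of all tested genes 0.951% lay lower without overlap in this contrast and 0.432% higher. Klf13 (-0.43 ± 0.14, adjusted p = 0.548), Hhex (-0.30 ± 0.11, adjusted p = 0.609), Ikzf3 (-0.35 ± 0.14, adjusted p = 0.645) and Lmo2 (0.39 ± 0.19, adjusted p = 0.707) followed, none of them called.

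For the change of the genotype difference from pre-Baso to basophils, Lmo2 was followed by Cebpb, with 1.0 ± 0.35, and Tcf3, with 0.67 ± 0.27 (limma adjusted p = 0.897 for both). In Tcf3 and Cebpb, as in Cbfb and Lmo4, the control pre-Baso libraries stood above all others, and the genotype difference in pre-Baso, the step in controls and the contrast between the 2 genotype differences all rest on those 2 libraries.

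The partners of these factors were read from lists of cofactors, of family relatives and of cell cycle genes. Of 32 tested cofactors and dimer partners, 10 were higher and 1 lower in control basophils than in control pre-Baso, and 6 higher and 0 lower in deficient basophils. Over all tested genes 12.6% were higher and 10% lower in controls, and 6.79% and 4.11% in deficient mice. By smallest p, and named after their values were seen, these were led by Jak2, the kinase of many cytokine receptors (1.25 ± 0.18, limma adjusted p = 0.00276, in controls and 0.84 ± 0.18, adjusted p = 0.0274, in deficient mice), and Tle3, a corepressor of RUNX and other factors (1.0 ± 0.15, adjusted p = 0.00335, and 1.06 ± 0.15, adjusted p = 0.00777). Of 28 tested family relatives, 9 were higher and 0 lower in controls, and 8 higher and 0 lower in deficient mice, beside the same shares of all genes. Spi1, which encodes the ETS factor PU.1, was at 45.7 and 52.9 TPM in control pre-Baso, 48.2 and 48.1 in deficient pre-Baso, 107 and 104 in control basophils and 93.0 and 93.6 in deficient basophils. It rose by 1.08 ± 0.13 (adjusted p = 0.00143) and 0.94 ± 0.13 (adjusted p = 0.0077). Klf2, Klf6 and Klf7 rose with Klf3, by 1.98 ± 0.29, 1.3 ± 0.21 and 1.06 ± 0.21 in controls (adjusted p = 0.00264, 0.00373 and 0.00941) and by 1.25 ± 0.29, 1.03 ± 0.21 and 1.07 ± 0.21 in deficient mice (adjusted p = 0.031, 0.0202 and 0.0185). Klf2 was at 0.268 to 0.658 TPM in pre-Baso and reached 1 TPM only in basophils, so it entered the test through the population in which it is high. It was at 5.25 and 3.47 TPM in control basophils and 3.89 and 1.88 in deficient basophils, higher in library 1 of each. Between genotypes Nfil3 was the only cofactor or relative called.

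Promoter sequence was looked up for the factors because 6 of them rose in both genotypes. RefSeq windows of GRCm38.p6 matched 38 of the 51 factors by name, and 33 had a start within 200 bases of the start of the factor's leading transcript. Runx2 was not among these 33. In the 250 bases upstream of the RefSeq start, the NFIL3 motif, searched on both strands as TTACGTAA and with T in place of its C, was found in 0 of 33 factors and 0.932% of 32851 windows of the same length. GATA motifs (AGATAA and its variants with T as the first base, G as the last base or both) were found in 5 of 33 and 26.5% of all windows, the E-box CANNTG in 15 of 33 and 66.2%, and the RUNX motif TGTGGT in 4 of 33 and 14.1%. The ETS motif CCGGAAG was found in 3 of 33 and 6.91%, and the STAT motif TTCNNNGAA in 3 of 33 and 7.02%. All motifs were searched on both strands and each was counted on its own, so matches of 2 motifs may overlap. A match in these letters is a description of the window and shows no binding.

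The sequences below are those of the 4 factors that rose in both genotypes and had a window near their leading start, cut where the window first meets an annotated exon of the gene, on the gene's strand. For Tal1, Hhex and Klf3 this is the start of the annotated gene. The Id2 stretch lies within the gene, in the first intron of ENSMUST00000221761, which starts further upstream. Capitals mark GATA motifs or E-boxes.
Tal1, chr4:115056176-115056425, plus strand: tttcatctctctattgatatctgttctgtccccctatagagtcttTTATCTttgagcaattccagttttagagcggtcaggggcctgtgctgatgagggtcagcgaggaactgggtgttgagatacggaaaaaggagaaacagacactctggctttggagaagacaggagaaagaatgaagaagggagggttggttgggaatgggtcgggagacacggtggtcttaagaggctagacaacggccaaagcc
Hhex, chr19:37434591-37434809, plus strand: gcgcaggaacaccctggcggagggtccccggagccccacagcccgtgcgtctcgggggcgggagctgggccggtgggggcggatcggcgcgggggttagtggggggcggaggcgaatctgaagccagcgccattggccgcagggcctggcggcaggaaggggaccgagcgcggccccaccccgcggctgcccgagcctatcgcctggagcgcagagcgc
Id2, chr12:25096254-25096342, minus strand: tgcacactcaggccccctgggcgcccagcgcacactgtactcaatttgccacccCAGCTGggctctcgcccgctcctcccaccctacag
Klf3, chr5:64803271-64803387, plus strand: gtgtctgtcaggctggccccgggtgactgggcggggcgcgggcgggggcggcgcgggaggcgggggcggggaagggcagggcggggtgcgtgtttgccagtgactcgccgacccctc
The Tal1 stretch held 1 GATA match on the minus strand and the Id2 stretch 1 E-box. The Hhex and Klf3 stretches, which are rich in G and C, held neither. Over the whole windows G and C made up 48.8% of bases in Tal1, 62.8% in Id2, 76.0% in Hhex and 78.4% in Klf3.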

How the data were processed

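RNA of 8 libraries, 2 in each of 4 groups taken from the sample titles, was prepared with a SMARTER mRNA-Seq kit from total RNA, per the labels' protocols. The authors aligned reads with HISAT2 (version not given in the sources used here) against mm10 (per the submitters' processing notes). They estimated annotated transcripts with StringTie 2.1.4 on Ensembl release 101, without a strand option, per the file headers, so reads of overlapping antisense genes may be included. The deposited tables give coverage (a signal), FPKM and TPM of 142699 transcripts per library, and other attributes of each line. They give no read counts, so depth is stated as assigned bases (coverage times length), which covers 271.7 to 398.0 megabases per library.

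TPM was summed by gene. The 12511 genes with at least 1 TPM in at least 2 libraries entered a test of log2(TPM + 1), which understates the change of low genes, by limma 3.58.1 in R 4.3.3. The fit held 1 mean per group over all 8 libraries (4 residual degrees of freedom) with a variance trend and 6 contrasts. P-values were adjusted by Benjamini-Hochberg within each contrast over all genes tested, and calls were made under an adjusted p of 0.05. Adjusted p-values are limma's. The fit was also run on simulated data with independent noise for each gene and library. Such data hold no shared library effects and no splits among transcripts, so no conclusion on these is drawn from them.

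The factors, the marker lists and the partner lists were chosen with earlier results of these data known. Every factor may be named. Library values are given for factors called in any contrast, for those without overlap and a log2 difference of at least 1, and for the 5 smallest p in each genotype contrast. Other genes named are Nfil3, up to 8 called partner genes per contrast, up to 3 abundant markers per cell type, further markers of basophils and macrophages, and markers at or near 0. Alternatives were pseudocounts of 0.1 and 5, no filter, a filter at 5 TPM, protein-coding genes only, FPKM, quantile normalization, robust moderation, the compared groups alone, a replicate block and each library left out. Assigned bases, and the removal of both basophil libraries numbered 1, were added after the data were seen.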

Additional observations from a re-analysis of the deposited data

How the results depend on the processing

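Counts of called genes moved with the settings. With no filter they were 23 for genotype in pre-Baso (8 in the reported fit), 18 in basophils (7), 5 over both (11), 1516 for the step from pre-Baso to basophils in controls (2832) and 298 in deficient mice (1363), with 5 and 2 of the factors called in the 2 steps (15 and 8). With a pseudocount of 0.1 they were 16 for genotype in basophils, 19 over both and 2 for the difference of the genotype effect (0). With protein-coding genes only they were 5 in pre-Baso, 18 in basophils and 2 for the difference. With the compared groups alone they were 3 in pre-Baso, 4 in basophils and 562 for the step in deficient mice, with 4 factors. The strict filter gave 17 and robust moderation 19 over both. By assigned bases there were 97 in basophils, 3 for the difference and 2270 for the step in deficient mice, with 13 factors. Without both basophil libraries numbered 1 there were 3 in pre-Baso, 1 for the difference, 1032 and 4 for the steps in controls and deficient mice, with 4 and 0 factors. Leaving out each library in turn gave 5 to 9 in pre-Baso, 6 to 17 in basophils, 7 to 11 over both, 0 to 2 for the difference, 1397 to 2651 and 19 to 1237 for the steps, and 5 to 15 and 0 to 8 factors in the steps. The causes were not tested, beyond the fewer libraries or other gene sets by construction. Same-numbered libraries deviated with correlations of -0.054 to 0.202 across genes, so the numbers were not taken to pair samples. With the replicate block 7 genes were called over both populations, 12 factors in the step in controls and 6 in deficient mice. The 18 uncalled factor values followed were called in 0 settings.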
